A study of Rattus norvegicus with 53 samples.

Results

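The first hour of the control culture was compared with time 0 in L6 cells, a rat skeletal muscle line whose myoblasts fuse into myotubes when serum is lowered. The control arrays of hour 1 and of time 0 were taken by their titles, which gave 6 of the 53 arrays of the series, 3 at hour 1 and 3 at time 0, 1 of each for every letter (a, b and c, repeats of the whole experiment on different days). Hour 1 of the control culture (Control_1) is a pool of samples harvested at 20, 40 and 60 min in DMEM with 0 nM insulin. Its reference, time 0 of the same culture (Control_0), is a pool of plates harvested before that interval. All plates had been differentiated in low serum and then kept in serum-free DMEM before time 0, and each harvest used plates of its own, so that no plate was followed over time. Whether the control plates received fresh medium at time 0 is not stated in the sources used here. Beside this comparison the insulin culture is used, with its hour 1 (Insulin_1, 20 nM insulin) and its time 0 (pre-treatment_0), which was harvested before insulin and is therefore untreated as well. The labels call the cells myoblasts, whereas the growth protocol has them differentiated. Myogenin (Myog), the transcription factor of myoblast fusion, stood at 13.2, 12.6 and 11.7 on the log2 scale at hour 1 in letters a, b and c, against 13.4, 12.7 and 11.6 at time 0, and skeletal alpha-actin (Acta1) at 13.1 to 13.8 at hour 1, against 13.0 to 13.7 at time 0. All letters were 1 cell line. P-values of the main fit measure the spread between pools of different days that remains once the mean shift of each day is removed. That spread was estimated over all 18 groups of culture and time. Fewer cells of a type and less RNA per cell cannot be told apart in such pools.

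Cells that are handled or given new medium can switch on immediate early genes within minutes, through kinases that act on transcription factors already present, such as SRF and CREB. Their transcripts (Fos, Egr1, Atf3) are short-lived, and feedback inhibitors such as the phosphatase Dusp1 follow them closely. In muscle cells kept without serum, low signaling through insulin and growth factor receptors leaves FOXO factors in the nucleus, where they raise the transcripts of receptor adaptors and atrophy genes. The comparison of hour 1 with time 0 in the control culture shows how far such transcripts moved without insulin, on the arrays that serve as the baseline of the insulin experiment.

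Promoters, here the 250 bases before the annotated start of a gene, are shown for Irs1, the gene with the largest positive difference, and for Dusp1 and Srf, early genes in whose promoters a response element was found. They are RefSeq sequences of build GRCr8, 5′ to 3′ on the strand of the gene, at chr9:91053960-91054209 (minus strand) for Irs1, chr10:17184603-17184852 (plus strand) for Dusp1 and chr9:21923826-21924075 (plus strand) for Srf. Capitals mark the cyclic AMP response element (CRE) TGACGTCA in Dusp1, which begins 124 bases before the start, and the CArG boxes in Srf, to which SRF binds, which begin 81 and 61 bases before it.
Irs1: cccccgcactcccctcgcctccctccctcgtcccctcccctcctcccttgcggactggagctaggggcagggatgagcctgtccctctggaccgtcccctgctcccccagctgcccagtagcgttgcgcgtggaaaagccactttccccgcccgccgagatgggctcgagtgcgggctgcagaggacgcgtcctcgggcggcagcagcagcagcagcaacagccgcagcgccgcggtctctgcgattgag
Dusp1: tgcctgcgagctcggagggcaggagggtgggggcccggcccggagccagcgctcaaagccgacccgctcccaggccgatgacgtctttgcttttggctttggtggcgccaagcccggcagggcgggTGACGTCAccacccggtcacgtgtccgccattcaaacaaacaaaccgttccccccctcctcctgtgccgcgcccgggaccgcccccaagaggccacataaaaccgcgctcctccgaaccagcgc
Srf: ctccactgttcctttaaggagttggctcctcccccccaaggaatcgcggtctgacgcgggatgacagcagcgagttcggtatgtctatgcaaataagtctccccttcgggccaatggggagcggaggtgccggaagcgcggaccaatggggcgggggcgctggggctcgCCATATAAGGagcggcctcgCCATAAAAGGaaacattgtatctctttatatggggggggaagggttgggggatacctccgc
For counts of motifs a longer window was searched on both strands, the 250 bases before the start and a short stretch after it. Over all 33469 promoters of this longer window, 1.83% hold TGACGTCA and 1.64% a CArG box. The AP-1 element TGAGTCA is held by 4.63% and the NF-kappaB element GGAAATTCC by 0.332%. Of the 26 immediate early transcription factors measured, 16 have a promoter in the table. Among these, Jund, Maff and Ier2 hold the CRE and Egr1, Egr2, Srf and Klf6 a CArG box, and 0 hold either of the other elements. A match describes the letters only. None of the genes named here was called between hour 1 and time 0.

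No transcript was called between hour 1 and time 0 of the control culture. In limma, with 1 mean for each of the 18 groups and the letter as a block, 0 probe sets passed an adjusted p of 0.05 (0%), and thus 0 of 11577 genes at their brightest probe set. At an unadjusted p under 0.05 there were 545 probe sets (2.48%) and 222 genes (1.92%), of which 107 were higher at hour 1 (0.924%) and 115 lower (0.993%). A uniform distribution of p would give 5%. The smallest adjusted p was 0.249, that of the kinase gene Pim2. By position alone, all arrays of hour 1 lay above all arrays of time 0 in 118 genes (1.02%) and below them in 133 (1.15%).

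The differences were small as well as uncalled. Over the genes they ran from -0.55 for COX1 to 0.59 for Irs1 on the log2 scale, with the 5th percentile at -0.145 and the 95th at 0.157. In 200 genes the difference exceeded 0.25 in size and in 2 it exceeded 0.5, while 0 exceeded 1. The median SE of a gene was 0.109, and a lone probe set of median SE would need a difference of 0.624 to pass. The 95% interval lay within ±1 in 11573 of the genes and within ±0.5 in 11008 (95.1%). Changes past ±1 thus lay outside the interval in all genes but Ttc39a, COX1, Mir23b and Tmed5, whereas many smaller changes could not be called with 3 arrays a side.

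**Figure D1:**
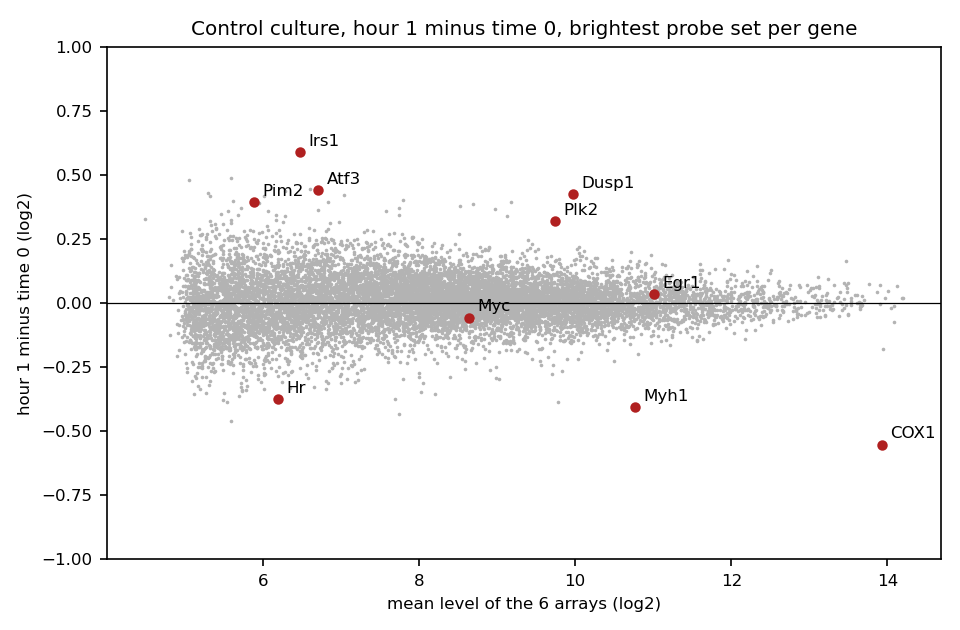
Difference between hour 1 and time 0 of the control culture (log2, vertical) against the mean level of the 6 arrays (log2, horizontal), 1 point for each of the 11577 genes at its brightest probe set, with genes of the text in red. The points lie between -0.55 (COX1) and 0.59 (Irs1), and 0 of them passed the test.

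Irs1, the adaptor that carries the signal of the insulin receptor to phosphatidylinositol 3-kinase, had the largest positive difference of all genes. Its level was 6.90, 6.38 and 7.03 at hour 1 in letters a, b and c, against 6.18, 6.04 and 6.31 at time 0. Every array of hour 1 thus lay above every array of time 0, and the smallest step was that of letter b (0.33, with 0.71 for a and 0.72 for c). The difference was 0.59 (SE 0.14, 95% interval 0.30 to 0.88), or 1.51-fold, with an adjusted p of 0.748 in limma. The untreated plates of the insulin culture gave lower levels still, 6.08, 5.88 and 5.98 at time 0. Against them the same arrays of hour 1 were higher by 0.79 (adjusted p = 0.0195), and against the mean of both sets of time 0 plates by 0.69 (adjusted p = 0.0251). Irs1 therefore passed or failed with the choice of untreated plates that stood for time 0. In the insulin culture its level was 6.69, 6.01 and 6.48 at hour 1, and the difference from its own time 0 was 0.42 (SE 0.14, adjusted p = 1). The changes without and with insulin differed by 0.18 (SE 0.20, adjusted p = 1.00). Irs2, the other main adaptor of the receptor, had a difference of 0.11 (SE 0.11), and the receptor gene Insr of 0.12 (SE 0.13).

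Pim2, a short-lived serine/threonine kinase that favours survival, had the smallest p of all probe sets. It stood at 6.00, 6.11 and 6.12 at hour 1, against 5.58, 5.64 and 5.83 at time 0, with no overlap. The difference was 0.39 (SE 0.078, 95% interval 0.24 to 0.55, adjusted p = 0.249). It was 0.32 against the untreated plates of the insulin culture (adjusted p = 0.219) and 0.36 against the mean of both sets (adjusted p = 0.0421). With insulin Pim2 had a difference of -0.046 (SE 0.078) from its own time 0, and the test of the difference between the cultures gave 0.44 (SE 0.11, adjusted p = 1.00). Its levels are near the lower end of the tested range, where the lowest mean over all arrays was 5.04.

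Zbtb10, a zinc finger transcription factor, was called only against the plates of the insulin culture. Its level was 5.94, 5.49 and 5.62 at hour 1, against 5.49, 5.42 and 5.37 at time 0 of the control culture and 5.35, 5.04 and 4.76 at time 0 of the insulin culture. In the control culture the hour 1 array of letter b lay at the time 0 level of letter a, and the difference was 0.26 (SE 0.11, adjusted p = 1). Against the other plates it was 0.63 (adjusted p = 0.0195). Like Pim2, Zbtb10 is near the lower end of the tested range, with a mean of 5.46 over all arrays. A probe set without a gene symbol had a difference of 0.31 (SE 0.072, adjusted p = 0.748) in the control culture, 0.40 against the other plates (adjusted p = 0.0195) and 0.36 against both (adjusted p = 0.0245). Against either of these alternatives 3 probe sets passed (0.0137%), all of them higher at hour 1. How far both sets of untreated plates differed at time 0 is given below.

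**Figure D2:**
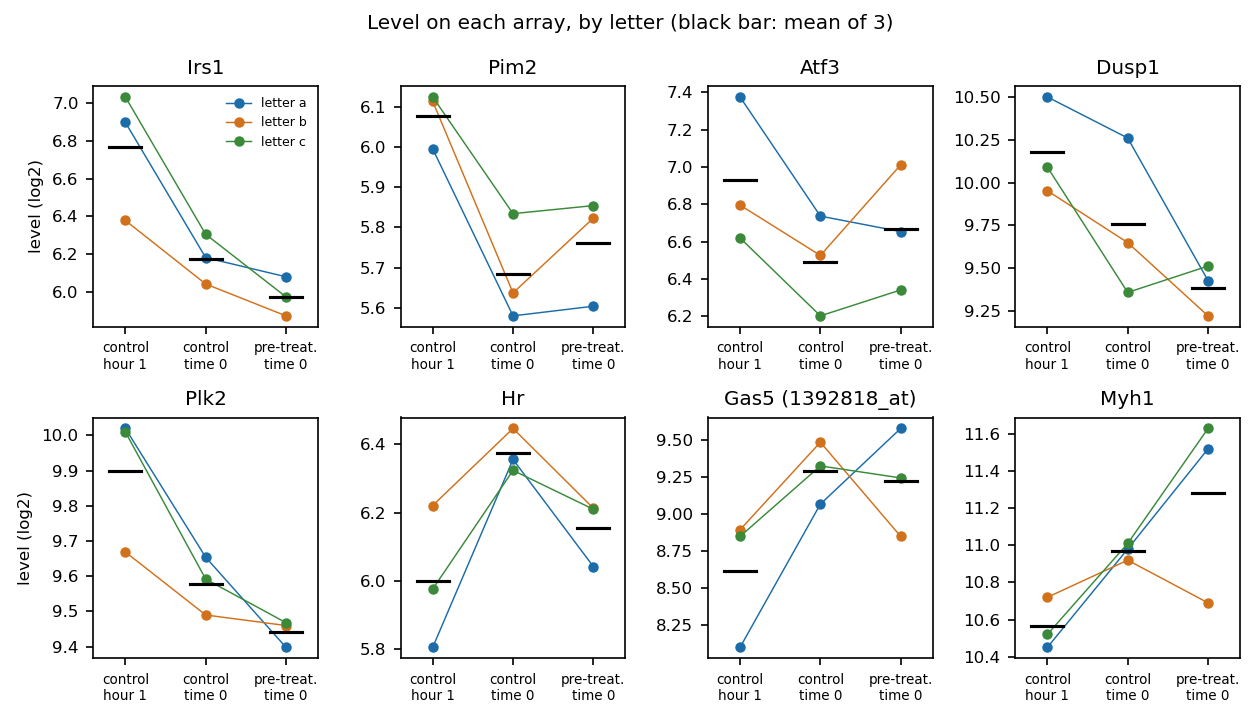
Level (log2, vertical) of 8 genes on each array of control hour 1, control time 0 and pre-treatment time 0 (the untreated plates of the insulin culture), with lines joining arrays of 1 letter and black bars for the mean of 3. The hour 1 arrays of Irs1 (6.38 to 7.03) lie above both sets of time 0 arrays, whereas those of Dusp1 and Atf3 overlap with control time 0.

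Among the immediate early transcription factors, 0 of 26 measured members were called (background 0%) and 2 had an unadjusted p under 0.05, Atf3 and Fosl2, both higher at hour 1 (0.924% of all genes had such a p and were higher). The median difference of the list was 0.029, against 0.0069 over all genes, and 14 members lay above 0 and 12 below, while 53.6% of all genes lay above 0 and 46.4% below. Atf3, a repressor induced by many stresses, stood at 7.38, 6.80 and 6.62 at hour 1, against 6.74, 6.53 and 6.20 at time 0. It was higher at hour 1 in each letter, although the groups overlapped because letter a lay above letter c throughout. The difference was 0.44 (SE 0.15, adjusted p = 1), and 0.39 (SE 0.15) in the insulin culture. Fosl2, an AP-1 subunit, stood at 6.65, 6.51 and 6.43 at hour 1, against 6.28, 6.38 and 6.12 at time 0, a difference of 0.27 (SE 0.097, adjusted p = 1) with no overlap. Other members had differences on both sides of 0. Egr1, a zinc finger factor, was at 11.0 ± 0.30 (SD, n = 3) at hour 1 and 11.0 ± 0.25 at time 0, with a difference of 0.036 (95% interval -0.63 to 0.71). For Fos the difference was -0.063 (-0.35 to 0.22), for Junb 0.033 (-0.23 to 0.30), for Jun 0.13 (-0.10 to 0.35), for Myc -0.057 (-0.66 to 0.54) and for Nr4a1, an orphan nuclear receptor, -0.066 (-0.30 to 0.17). The intervals of Egr1 and Myc are wide, so that moderate changes of these genes were not detectable here.

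Dusp1, the phosphatase that inactivates p38, JNK and ERK, was the member of the MAPK feedback list with the largest difference. It stood at 10.5, 9.95 and 10.1 at hour 1, against 10.3, 9.65 and 9.36 at time 0. Each letter was higher at hour 1, by 0.25, 0.30 and 0.73, but the time 0 array of letter a lay above the hour 1 arrays of letters b and c. The difference was 0.43 (SE 0.22, adjusted p = 1), and with the 6 arrays alone its adjusted p was 0.0609. The time 0 plates of the insulin culture were at 9.43, 9.22 and 9.51, and against them the difference was 0.79 (adjusted p = 0.238). With insulin it was 0.70 (SE 0.22, adjusted p = 1), and the changes without and with insulin differed by -0.27 (SE 0.31). A dimmer probe set of Dusp1 gave 0.19 (SE 0.27). Of the 14 measured members of this list 0 were called, 9 lay above 0 and 5 below, with a median of 0.058. Dusp10, a phosphatase of JNK and p38, was at 0.17 (SE 0.21, and 0.019 to 0.35 on leaving out 1 array or letter) and Errfi1, an inhibitor of the EGF receptor, at -0.17 (SE 0.20).

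Plk2, a polo-like kinase that p53 and serum induce, was the only member of the p53 list with an unadjusted p under 0.05. It stood at 10.0, 9.67 and 10.0 at hour 1, against 9.65, 9.49 and 9.59 at time 0, with no overlap and a difference of 0.32 (SE 0.13, adjusted p = 1). In the insulin culture the difference was 0.43 (SE 0.13, adjusted p = 1). In the list of Wnt proteins, growth factors and ligands 2 of 23 members had such a p, both lower at hour 1 (0.993% of all genes). Igfbp3, which binds insulin-like growth factors, was at -0.23 (SE 0.11, adjusted p = 1), and Ereg, a ligand of the EGF receptor, at -0.22 (SE 0.10, adjusted p = 1). Axin2, a feedback inhibitor of Wnt signaling, was at -0.23 (SE 0.19). The hypoxia, heat shock and glucocorticoid lists held no member under an unadjusted p of 0.05. Their largest members were Egln1, an oxygen-sensing hydroxylase, at 0.19 (SE 0.14, and 0.063 to 0.36 on leaving out 1 array or letter), the chaperone gene Hspa1a at -0.14 (SE 0.12) and the phosphodiesterase gene Pde4d at 0.22 (SE 0.12). The mean levels of Igfbp3 (5.24 at hour 1, 5.47 at time 0) and Hspa1a (5.32 and 5.46) were near the lower end of the tested range.

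Lists of growth, metabolism and cell type had medians near 0. In all 31 lists, chosen with earlier results of these arrays known, 0 members were called in either direction (0% of all genes). The medians of the lists ran from -0.056 for proliferating cells to 0.077 for adipocyte markers, of which 3 were measured, against 0.0069 over all genes. FOXO targets and atrophy regulators, which rise in starved muscle, had a median of 0.022 with 14 of 21 members above 0, and Foxo3 itself stood at 0.14 (SE 0.084). Trim63, the muscle ubiquitin ligase MuRF1, was at 0.097 (SE 0.13) and Pdk4, which inactivates pyruvate dehydrogenase, at -0.023 (SE 0.26). Txnip, an arrestin-like protein that responds to glucose, was at 0.022 (SE 0.15). In the ATF4 list 16 of 22 lay above 0, with a median of 0.047, and Atf4 at 0.027 (SE 0.13). Of 29 genes of ribosome biogenesis 19 lay above 0 (median 0.019), of 31 of oxidative phosphorylation 21 (median 0.019) and of 23 cytosolic ribosomal proteins 14 (median 0.0033). Ribosomal proteins had the narrowest range of all lists, with differences of -0.046 (Rpl6) to 0.069 (Rpl28). In the circadian list Nr1d1, the repressor REV-ERB alpha, was at 0.19 (SE 0.17) and Per1 at 0.10 (SE 0.10).

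Members with the largest values in other lists were not called either, and each had an adjusted p of 1. Among regulators of muscle identity, Myf6, the myogenic factor of late differentiation, was at 0.35 (SE 0.20) and Six4, a homeobox factor, at 0.15 (SE 0.19), while Myog was at -0.013 (SE 0.12). Of the genes that BMP signaling induces, Id2, an inhibitor of basic helix-loop-helix factors, was at 0.21 (SE 0.29) and Bambi, a decoy receptor, at 0.24 (SE 0.15). The chemokine gene Cxcl1 was at 0.27 (SE 0.26) and Socs3, an inhibitor of cytokine receptors, at -0.19 (SE 0.14). The stress genes Cebpb and Ddit4, which encode a bZIP factor and an inhibitor of mTORC1, were at 0.25 (SE 0.32) and 0.22 (SE 0.20), and Gadd45b and Gadd45g at -0.14 (SE 0.096) and -0.11 (SE 0.20). For these genes the SE was often nearly as large as the difference or larger, and single arrays or letters moved the value: on leaving out 1 of them Six4 lay between 0.029 and 0.32 and Bambi between 0.055 and 0.37. Polr2a, the largest subunit of RNA polymerase II, was at 0.18 (SE 0.17), Brd2, a reader of acetylated histones, at 0.14 (SE 0.13), the deacetylase gene Hdac1 at -0.15 (SE 0.097) and Suz12, a Polycomb subunit, at 0.11 (SE 0.13). In cholesterol synthesis Nsdhl and Msmo1, enzymes of sterol demethylation, were at -0.14 (SE 0.11) and -0.14 (SE 0.13), and the median of the 20 measured members was -0.018. Of the interferon-induced genes Ifit1 was at 0.21 (SE 0.15) and Ifit2 at 0.13 (SE 0.20). The mitotic genes Ccnb1 and Aurkb were at -0.15 (SE 0.16 for each), and 11 of 15 genes of proliferating cells lay below 0. Leaving out 1 array or letter gave -0.32 to -0.013 for Ccnb1 and 0.0032 to 0.29 for Brd2.

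In 26 of the 31 lists the letters had medians on both sides of 0. The median was above 0 in every letter for 4 lists (SRF and YAP targets, the ATF4 list, glucocorticoid and cAMP responsive genes, and the Wnt and growth factor list) and below 0 in every letter for 1, the factors of mRNA decay. Over all genes the medians were 0.059, -0.024 and -0.0079 in letters a, b and c. In letter a the SRF and YAP targets (0.026) and the Wnt list (0.024) lay below that of all genes. The ATF4 list (0.097) and the glucocorticoid list (0.077) lay above it. For proliferating cells the letters a, b and c had medians of 0.18, -0.13 and -0.22, and for cholesterol synthesis 0.060, -0.027 and -0.17. For myotube genes it was -0.018, -0.0065 and 0.19. Letter c thus stood apart for the contractile genes: creatine kinase (Ckm) was at 10.2, 10.1 and 8.38 at hour 1, against 10.1, 10.1 and 7.88 at time 0, and nebulin (Neb), the giant protein of the thin filament, at 8.35, 8.17 and 6.91 at hour 1, against 8.54, 8.33 and 5.74 at time 0. The low arrays were those of letter c at both times. Nebulin was at 0.27 (SE 0.21) with all letters and at -0.17 without letter c. Embryonic myosin (Myh3) averaged 13.6 ± 0.51 at hour 1 and 13.4 ± 0.70 at time 0 (SD, n = 3 each), and its difference was 0.16 (SE 0.10).

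**Figure D3:**
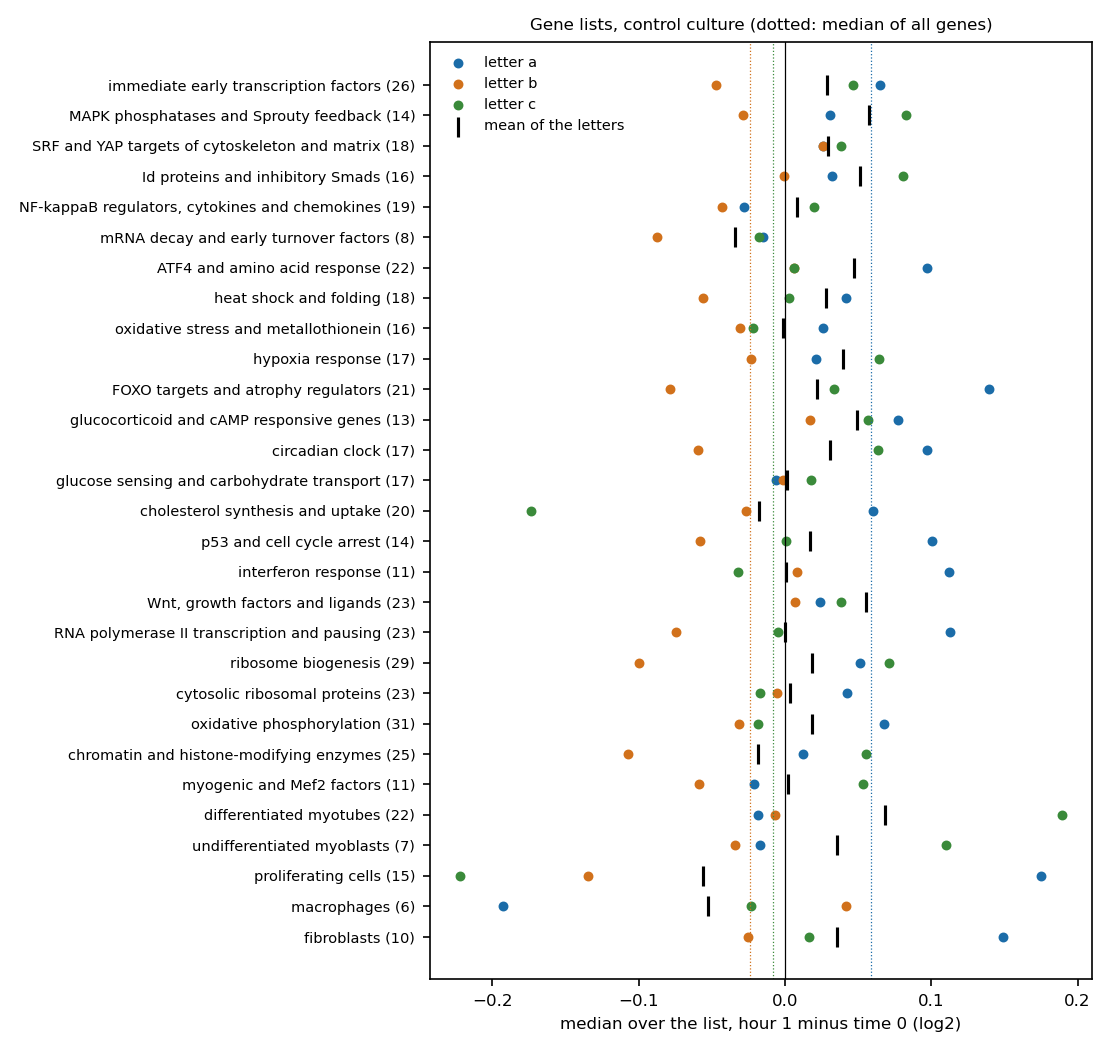
Median difference between hour 1 and time 0 (log2, horizontal) over the measured members of each list with 6 or more (number in brackets), for each letter (points) and for the mean of the letters (bars), with dotted lines at the median of all genes in each letter. The letters fall on both sides of 0 in most lists, as for proliferating cells (0.18, -0.13 and -0.22).

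Markers of other cells differed in level. Of 11 macrophage markers on the array 6 reached the tested range, and of 9 each for endothelial cells and adipocytes 3 did. Mean levels over all arrays of the 6 macrophage markers ran from 5.11 to 7.70. Cd68 averaged 5.46 ± 0.21 at hour 1 and 5.6 ± 0.038 at time 0. The receptor gene Csf1r averaged 5.03 ± 0.27 and 5.07 ± 0.15, and both genes were near the dimmest probe sets tested. The endothelial gene Egfl7 was brighter than Cd68 and Csf1r, at 7.8 ± 0.26 at hour 1 and 7.92 ± 0.012 at time 0. So was the lipase gene Lpl of the adipocyte list, which muscle also expresses, at 9.85 ± 0.55 and 9.82 ± 0.48. Summed over each list, log2 levels overlapped between hour 1 and time 0 for macrophages (35.4 to 37.3, against 36.2 to 37.2). They also overlapped for endothelial cells (19.7 to 20.5, against 20.0 to 20.5) and fibroblasts (98.0 to 101, against 98.1 to 99.8). For the 3 adipocyte markers the sums did not overlap, but only narrowly (22.74 to 23.2 at hour 1, against 22.4 to 22.72 at time 0). Each of the 3 markers overlapped by itself, and none had the same sign in every letter. Their medians were 0.13, 0.078 and -0.0099 in letters a, b and c. All 10 fibroblast markers were measured, and Col1a1 was at 12.3 ± 0.44 at hour 1 and 12.2 ± 0.47 at time 0. As measures of RNA quality, the 3′ minus 5′ level of the Gapdh control was -0.031, 0.13 and 0.081 at hour 1 in letters a, b and c, against -0.040, 0.082 and 0.029 at time 0, thus higher at hour 1 in every letter. That of the actin control was 0.41, 0.48 and 0.71 at hour 1, against 0.43, 0.38 and 0.59 at time 0. The pre-treatment plates, against which Irs1 and Zbtb10 were called, had 0.53, 0.85 and 0.69 for actin, higher than the hour 1 array in letters a and b, and -0.030, 0.0018 and -0.014 for Gapdh. Array medians lay between 6.3 and 6.33 for the control arrays of both times and between 6.32 and 6.34 for the pre-treatment plates. Over the tested probe sets they were 7.50, 7.38 and 7.45 at control hour 1, against 7.41, 7.43 and 7.44 at control time 0. The part of these values in the results was not tested.

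Over all genes, the differences between hour 1 and time 0 were narrower than those between sets of untreated plates. Within a letter, the SD over genes of hour 1 minus time 0 came to 0.199 for letter a, 0.153 for b and 0.159 for c. That of control minus pre-treatment plates at time 0, both untreated, was 0.282, 0.262 and 0.184. In every letter the untreated pairs were the wider ones, and both differences share the control arrays of time 0. Control hour 1 minus the pre-treatment plates was wide too, at 0.273, 0.318 and 0.211 for letters a, b and c. How much of these widths lies between the cultures was not tested. From control time 0 to hour 1, differences past 0.5 numbered 126 higher and 153 lower genes for letter a. For b they numbered 17 and 25, and for c 45 and 36. Across the 11577 genes, which are not independent, the changes of the letters correlated at -0.25 (a and b), -0.043 (a and c) and 0.17 (b and c). The sign was the same in all letters in 2440 genes (21.1%), 1522 higher (13.1%) and 918 lower (7.93%). The median change over all genes was itself 0.059 for letter a, -0.024 for b and -0.0079 for c. At time 0 the untreated sets differed in 0 called probe sets, with 1071 at an unadjusted p under 0.05 (4.88%, limma). Neither this count nor the 545 of the first hour was stable: leaving out 1 letter gave 1137 to 2036 between the untreated sets (2036 without letter c), and leaving out 1 array or letter gave 456 to 1064 for hour 1 against time 0 (1064 without the hour 1 array of letter b), so that the order of the counts is not firm.

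**Figure D4:**
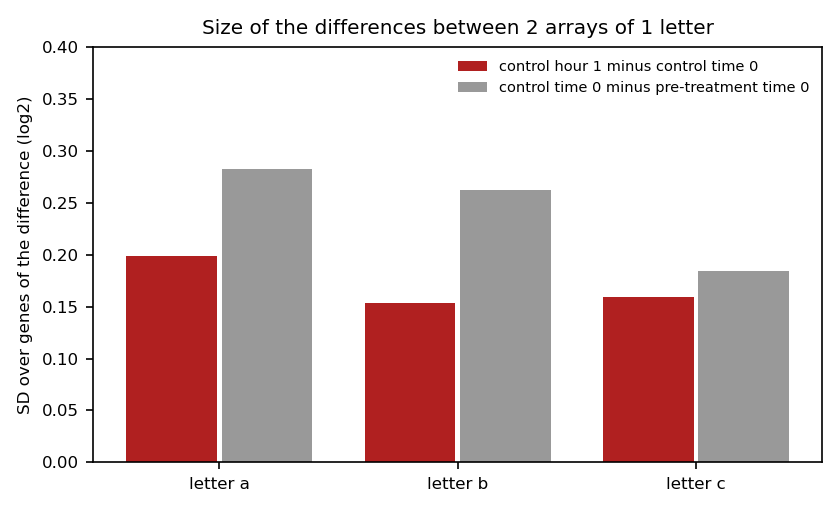
SD over the 11577 genes of the difference between 2 arrays of 1 letter (log2, vertical), for control hour 1 minus control time 0 (red) and for control minus pre-treatment plates at time 0 (grey). The red bars are 0.153 to 0.199 and each lies below the grey bar of its letter (0.184 to 0.282).

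With the 6 arrays alone 7 probe sets passed (0.0319%), 2 higher and 5 lower at hour 1, and 1 of them was the brightest of its gene. That gene was Myh1, a fast myosin heavy chain of adult fibres, at 10.5, 10.7 and 10.5 at hour 1, against 11.0, 10.9 and 11.0 at time 0. The groups did not overlap and the difference was -0.41, with SE 0.068 and an adjusted p of 0.0183 in this fit, but with SE 0.27 and an adjusted p of 1 when all arrays estimated the spread. The time 0 plates of the insulin culture ranged from 10.7 to 11.6, wider than both control groups. Each of 4 dimmer probe sets of Myh1 was closer to 0, from -0.29 to -0.060. The long noncoding RNA Gas5, a host of small nucleolar RNAs, passed at 1 of its probe sets. There it stood at 8.10, 8.89 and 8.85 at hour 1, against 9.07, 9.48 and 9.32 at time 0, a difference of -0.68 (adjusted p = 0.00589, and 1 with all arrays). At the brightest probe set of Gas5 the difference was 0.0036 (SE 0.089), so the probe sets disagree. The remaining 5 carry no gene symbol. Of these, 3 were lower at hour 1 (-0.59, -0.60 and -0.77) and 2 higher (0.71 and 0.79), each with an adjusted p of 1 with all arrays. All of these probe sets were singled out after their values were seen.

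Other large negative values were not called with all arrays, with the 6 arrays alone or with other time 0 plates. COX1, the mitochondrially encoded subunit of cytochrome c oxidase, was at 14.3, 13.7 and 13.0 at hour 1, against 14.3, 14.1 and 14.2 at time 0. Its difference of -0.55 (SE 0.32) lay mostly in letter c (-1.20, with -0.064 for a and -0.39 for b), and with the 6 arrays alone its adjusted p was 0.0609. Tia1, an RNA-binding protein of stress granules, was at 5.58, 5.17 and 5.33 at hour 1, against 5.97, 5.65 and 5.84 at time 0, with no overlap. Its difference was -0.46 (SE 0.16, adjusted p = 1) and was alike in the letters (-0.39, -0.49 and -0.51). The mean of Tia1 over all arrays was 5.86, near the lower end of the tested range. The microRNA gene Mir23b had a difference of -0.43 (SE 0.29, adjusted p = 1), mostly in letter a (-0.89). Hr, the hairless corepressor, stood at 5.81, 6.22 and 5.98 at hour 1, against 6.36, 6.45 and 6.32 at time 0, with no overlap. The difference was -0.38 (SE 0.091, adjusted p = 0.748), and with insulin it was 0.15 (SE 0.091). The difference between the cultures was -0.53 (SE 0.13, adjusted p = 1.00). Already at time 0 the control plates stood 0.22 above the pre-treatment plates.

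Later hours show where these levels went, and are given without a test because they share the time 0 arrays. Irs1 had means of 6.18, 6.77, 6.62 and 6.05 at times 0, 1, 2 and 3 h and lay between 5.74 and 5.91 from hour 4 to hour 8. Dusp1 was at 9.76, 10.2 and 8.82 at times 0, 1 and 2 h and between 8.70 and 9.12 thereafter. Both genes had their highest mean at hour 1. Like the other genes and the probe set given here, they were chosen by their differences on these same hour 1 arrays. Such a choice favours an extreme at hour 1. Atf3 was highest at hour 2, with 7.42 ± 0.39 (SD, n = 3), and stood at 6.51 ± 0.50 at hour 8. Fosl2 also had its highest mean at hour 2 (6.84). Pim2 was at 5.68, 6.08 and 5.82 at times 0, 1 and 2 h and between 5.77 and 5.89 later. The unnamed probe set with a difference of -0.59 was lowest at hour 1 (9.18) and had higher means at each later hour, up to 10.8 at hour 8.

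**Figure D5:**
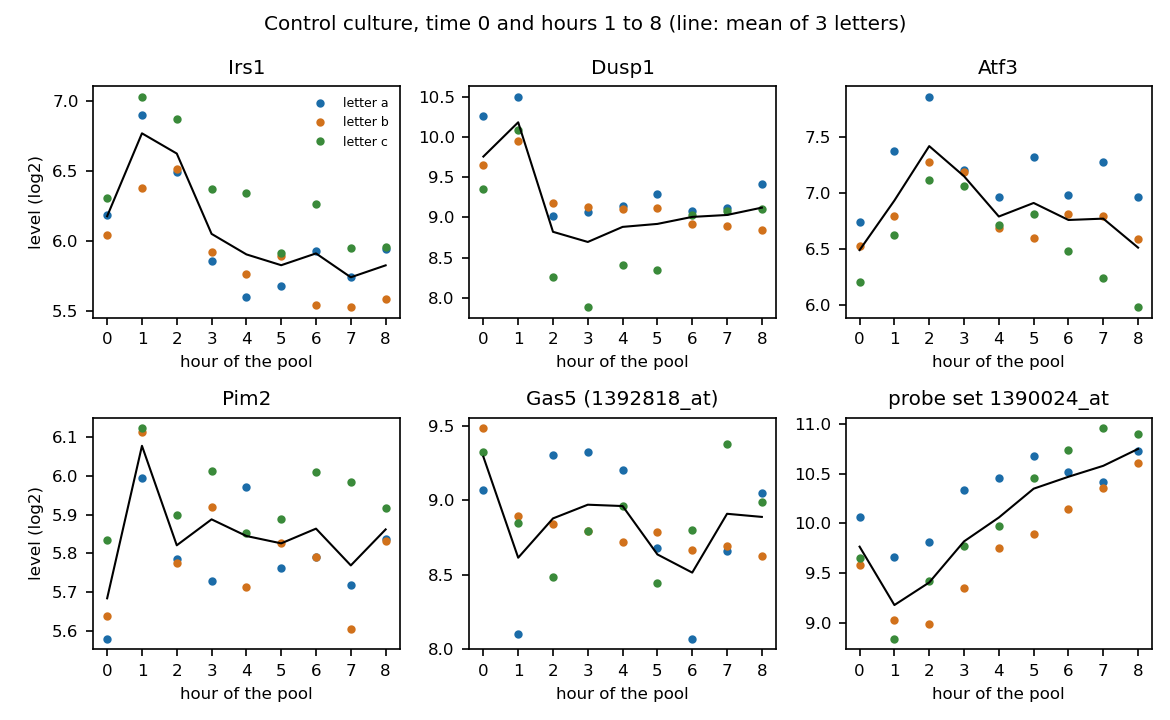
Level (log2, vertical) in the control culture at time 0 and in the pools of hours 1 to 8 (horizontal), for 4 named genes, the Gas5 probe set that passed with the 6 arrays alone and an unnamed probe set, with points for the letters and a line for their mean. Irs1, Dusp1 and Pim2 have their highest mean at hour 1 (6.77, 10.2 and 6.08) and Atf3 at hour 2 (7.42). All panels were chosen by their differences on the same hour 1 arrays, which favours an extreme at that hour.

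The insulin culture over the same interval gave 0 called probe sets as well, with 869 at an unadjusted p under 0.05 (3.96%, limma; 483 without letter a). The changes without and with insulin differed in 0 probe sets, with 386 at such a p (1.76%), and 742 without letter c. Of the 20 genes with the largest positive differences in the control culture, 15 had a difference above 0 with insulin too (43.7% of all genes did), with a median of 0.099. Irs1 (0.59 without insulin, 0.42 with it), Atf3 (0.44 and 0.39) and Dusp1 (0.43 and 0.70) were positive by 0.39 or more in both. So were Aldh1a1 (0.40 and 0.47) and Anp32a (0.39 and 0.49, the former mostly from letter c at 1.28). Sert1 (0.49 and 0.10), Nxpe4 (0.48 and 0.011) and Manba (0.43 and 0.13) were closer to 0 with insulin. Frat2 (0.42 and 0.096) and Dysf (0.40 and 0.012) were too. Pim2 (0.39 and -0.046) and Eno2 (0.39 and -0.14) were among the 5 below 0 with insulin. Of the 20 largest negative differences 15 were below 0 with insulin (56.3% of all genes), and Hr (-0.38 and 0.15) was among the 5 above. The difference between the cultures passed the threshold for 0 of these 40 genes. They were chosen as the largest differences of the control culture, and such a choice favours values closer to 0 on other arrays. Nxpe4, Manba and Dysf are near the lower end of the tested range, with means over all arrays of 5.11, 5.32 and 5.54. The cultures have separate arrays at both times.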

How the data were processed

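Expression was measured on Affymetrix rat expression arrays. The authors subtracted background, applied quantile normalization and summarized probes by RMA (version not given in the sources used here). The table they deposited gives log2 levels for 31099 probe sets and 53 arrays, grouped here by title. Quantile normalization gives all arrays nearly 1 distribution, so a shift shared by all transcripts cannot be seen. Precision is limited by the number of arrays. Detection calls were not used here. Tested were the brightest non-control probe sets by mean level, as many as the authors kept.

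One mean per group and the letter as an additive block were fitted to all arrays with limma 3.58.1 in R 4.3.3 (33 residual degrees of freedom, trended variance, two-sided, Benjamini-Hochberg threshold 0.05). The letter was used as a block since it marks the day of the experiment. In their deviations from the group means, the hour 1 and time 0 arrays of a letter correlated at 0.68 to 0.80 across probe sets, each best with its own letter. Arrays of 1 letter at different hours entered as independent. Of the tested probe sets 16272 carry 1 gene symbol in the platform annotation, and the brightest of each gene gave 11577 genes. Of the 31042 non-control probe sets 436 carry several symbols and 9780 none. The script was tested on simulated data.

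The members and lists were chosen with earlier results of these data known. Genes were named by a rule: called genes, up to 2 members with the largest difference of each list where none was called, and 6 myotube genes. As none was called, Irs1, Pim2, Zbtb10, Myh1, Gas5, Hr, COX1, Tia1, Mir23b, the other genes among the 20 largest differences each way and the unnamed probe sets were chosen after their values were seen, as were list members given to show a group. Tested alternatives were the fit without the block, with the control arrays or the 6 arrays alone, other time 0 plates, other filters, arrays centred on their medians, no variance trend, the mean of all probe sets of a gene, and leaving out arrays or letters.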

Additional observations from a re-analysis of the deposited data

How the results depend on the processing

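The counts of 0 called probe sets and 0 called genes between hour 1 and time 0 held without the replicate block (0; 259 at an unadjusted p under 0.05, against 545 with it), with the 27 control arrays only, without a filter or with the 15000 brightest probe sets, with arrays centred on their medians, without a variance trend, and without any 1 array or letter (0 to 0). With the 6 arrays alone 7 probe sets and 1 gene passed, with the pre-treatment plates as time 0 it was 3 and 2, and with the mean of both sets of time 0 plates 3 and 2. The pairing by letter changed no other call. The insulin culture and the difference between the cultures stayed at 0 called (0 to 0), also without the block, and the comparison of untreated plates at time 0 had 0 to 1, the 1 without letter a. Of 79 named genes and probe sets 11 were called under some setting, all given in the report.

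Signs of uncalled values turned in places. With the pre-treatment plates as time 0 the difference was -0.17 for Id2, 0.0432 for Hspa1a, 0.224 for Gadd45g, 0.0192 for Nsdhl, -0.126 for Suz12, -0.0863 for Esam, -0.0213 for Pdgfra and 0.339 for Myog. With both sets it was 0.0544 for Gadd45g, -0.0064 for Suz12 and 0.163 for Myog, and with all probe sets of the gene 0.0342 for Fbxo21. Leaving out an array or a letter turned the sign in 18 of the 79 and moved 49 others by over 1.5 times. The ranges of the 18 were -0.357 to 0.0941 for Arc, -0.19 to 0.588 for Id2, -0.196 to 0.685 for Cxcl1, -0.324 to 0.126 for Zfp36l2, -0.0781 to 0.621 for Cebpb, -0.258 to 0.0518 for Hspa1a, -0.377 to 0.104 for Gadd45g, -0.401 to 0.0317 for Errfi1, -0.00864 to 0.212 for Ifit2, -0.036 to 0.379 for Polr2a, -0.0652 to 0.259 for Dkc1, -0.013 to 0.321 for Nop2, -0.025 to 0.203 for Rpl28, -0.174 to 0.508 for Neb, -0.00834 to 0.144 for Cdh15, -0.116 to 0.158 for Fap, -0.0853 to 0.0364 for Myog and -0.209 to 0.0202 for Des. The cause was not tested.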
